A study of Mus musculus with 18 samples.

Results

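Macrophages of C57BL/6 (B6) mice that had been given 25-hydroxycholesterol (25HC) before a Toll-like receptor stimulus were compared with macrophages given the stimulus alone. The cells were bone-marrow-derived macrophages, which are grown in culture from bone marrow, and none of the 6 cultures carried a gene deletion. In one group they received 5 µM of 25HC for 18 hours and then the lipopeptide Pam3CSK4 (PAM3), made to resemble one of bacteria, at 300 ng/mL. In the other they received no oxysterol and the same amount of PAM3. The labels give 18 as the stimulation time, with no unit, and do not say whether a vehicle was used, whether 25HC stayed on the cells during PAM3, or the age and sex of the mice. Each group held 3 libraries, numbered 1 to 3 by mouse, so the comparison used 6 of the 18 libraries of the series, chosen by their labels. The other 12 were untreated and 25HC-treated B6 cells at rest and untreated Ch25h-/- cells, which lack the enzyme that makes 25HC, at rest and with PAM3. RNA-seq of polyadenylated RNA gave a count per gene in each library.

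25HC is made from cholesterol by macrophages, and it signals that sterols are in supply. It binds INSIG proteins, which hold the SCAP escort protein and its cargo, the SREBP transcription factors, in the endoplasmic reticulum, so that genes for making and taking up cholesterol are not switched on, and it can act as a ligand of the LXR nuclear receptors, which drive cholesterol export. PAM3 is sensed by Toll-like receptor 2 paired with Toll-like receptor 1, whose adaptors activate NF-kB and the MAP kinases that feed AP-1. Levels below are CPM, counts scaled to the library total, and where 3 values follow each other they belong to mice 1, 2 and 3 in that order. Fold changes are log2 values, 25HC minus untreated, with a standard error (SE), and a gene was called changed at an adjusted p below 0.05 in edgeR's quasi-likelihood test with Benjamini-Hochberg adjustment over all 12741 tested genes.

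With PAM3 on both sides, 25HC changed a large part of the tested genes in both directions. Of the pathway lists described below, growth factors and CXC chemokines had the highest median log2 fold changes, and sterol synthesis and interferon-induced antiviral effectors the lowest. Of 12741 tested genes 45.1% were called, 21.5% as higher and 23.6% as lower, and these shares are the background for every count below. At 8-fold or more 142 genes (1.11%) were higher and 171 (1.34%) lower. The median log2 fold change over all tested genes was -0.04, and the median size of a called change was 0.80. Among the 5750 called genes 5722 moved the same way in all 3 pairs of libraries of the same mouse number and 5402 had no overlap between the 3 untreated and the 3 treated libraries, where 58.4% of all tested genes had none. Both counts follow in large part from how genes were called. Genes called higher with 25HC made up 14.3% of the summed CPM of tested genes in untreated cells and 29.6% after 25HC. The direction of that change follows from how these genes were chosen. The spread differed between the groups: over called genes the median ratio of SD to mean was 0.155 among the untreated and 0.0955 among the treated libraries. Of 218 long intergenic RNAs 53 were lower and 23 higher, and of 12115 protein-coding genes 2893 were lower and 2676 higher.

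**Figure D1:**
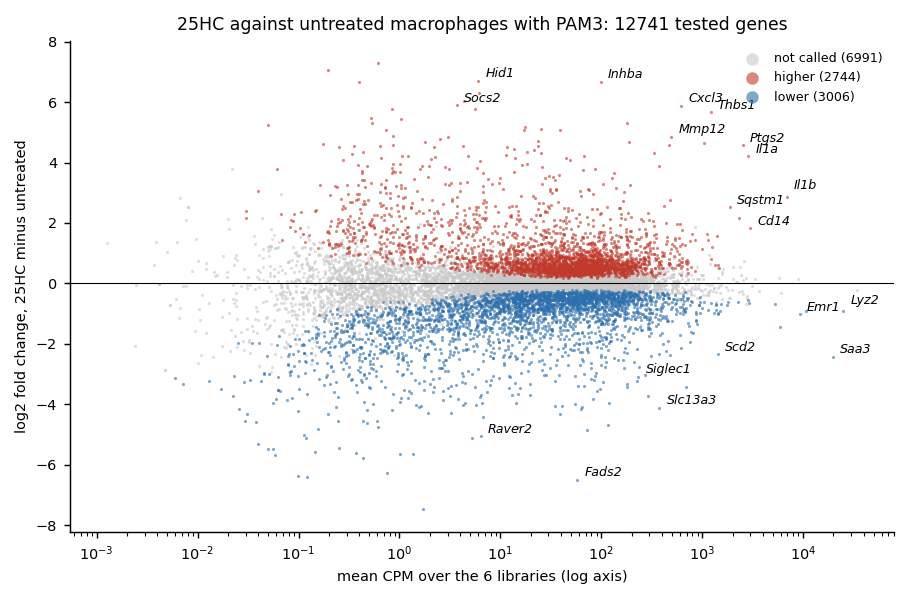
Each point is 1 of 12741 tested genes, with its mean level over the 6 libraries in CPM on a log axis across and its log2 fold change (25HC minus untreated, both with PAM3) upwards. Red points were called higher (2744), blue points lower (3006) and grey points neither, and of the labelled genes Hid1 is the highest at 6.71 and Fads2 the lowest at -6.49.

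Library totals ran from 39.97 M to 150.4 M counts in the 6 libraries, a 3.76-fold range, and mouse 2 had the deepest library of both groups. Mitochondrially encoded mRNA took 1.11 to 1.71% of counts. The label was checked against macrophage markers: Emr1 (Adgre1, the F4/80 antigen) stood at 11536, 12755 and 12835 CPM in untreated and at 5694, 6995 and 5686 CPM in treated cells, Csf1r, the receptor for the macrophage growth factor, at 2176, 2074 and 2302 and 2791, 2589 and 2644 CPM, and Cd68 at 338, 313 and 439 and 313, 351 and 306 CPM. Of 24 macrophage identity genes 10 were called higher and 9 lower, with their summed level at 50117 to 64921 CPM in untreated and 35144 to 42839 CPM in treated libraries. Marker lists of other cell types were low. T cell markers summed to 4.92 to 11.4 CPM untreated and 58.97 to 101 CPM with 25HC, nearly all of it Il7r, with Cd3e, Cd3g, Cd8a and Cd8b1 at 0 in all 6 libraries. B cell markers summed to 7.87 to 17.3 and 0.948 to 1.72 CPM, with Pax5, Blk and Fcer2a at 0. Neutrophil markers summed to 212 to 218 and 181 to 218 CPM, nearly all of it Csf3r, with Ly6g at 0. Fibroblast markers lay at 10.4 to 12.03 and 7.42 to 8.24 CPM, and endothelial markers at 25.7 to 33.4 and 43.3 to 50.2 CPM. Erythroid and megakaryocyte markers summed to 79.2 to 168 CPM untreated and 370.1 to 481 CPM with 25HC, nearly all of it Pf4 and Ppbp, which are chemokine genes described below, with Alas2 at 0. Dendritic cell markers summed to 2.62 to 3.58 and 5.44 to 6.09 CPM, and those of NK cells and of mast cells or basophils to no more than 1.18 CPM in any library. The part of fibroblasts, endothelial cells and dendritic cells in the results was not tested. In bulk RNA a smaller number of cells of one kind and less RNA in each cell cannot be told apart.

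Chemokines of the CXC class, several of which attract neutrophils, were mostly higher. Of 12 tested CXC chemokines 8 were higher and 2 lower, with a median log2 fold change of 1.42. The 3 genes Cxcl1, Cxcl2 and Cxcl3, whose products bind the neutrophil receptor CXCR2, each have an NF-kB site within 100 bases before the start. The sites are shown because these genes are among the largest rises and lie in the same region of chromosome 5. Capitals mark 1 match per gene of the motif, GGG followed by any 2 bases and then TTTCC, searched on both strands, in promoters from RefSeq (GRCm38.p6, all on the plus strand): chr5:90891144-90891213, chr5:90903772-90903841 and chr5:90785998-90786067. Cxcl1 and Cxcl2 each hold a second match in the printed stretch, left in lower case. It lies 80 to 89 bases before the start in Cxcl1, on the minus strand, and 69 to 78 bases before it in Cxcl2.
Cxcl1: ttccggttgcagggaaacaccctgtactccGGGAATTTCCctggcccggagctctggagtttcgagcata
Cxcl2: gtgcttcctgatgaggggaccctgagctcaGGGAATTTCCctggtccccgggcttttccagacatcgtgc
Cxcl3: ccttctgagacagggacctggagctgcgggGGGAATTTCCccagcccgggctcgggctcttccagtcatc
The motif was found in 3 of 10 CXC chemokine promoters matched, against 2.09% of the promoters of all tested coding genes and 2.24% of those called higher. A match describes the letters and is not a measured binding site. Cxcl3 stood at 46.5, 2.55 and 13.6 CPM in untreated cells and 1588, 633 and 1417 CPM with 25HC, a log2 fold change of 5.87 ± 0.93 (SE; edgeR adjusted p = 0.000135). Cxcl2 went from 151, 27.2 and 65.3 to 2362, 1609.9 and 2089 CPM (4.64 ± 0.81, edgeR adjusted p = 0.000304) and Cxcl1 from 15.3, 2.50 and 9.26 to 364, 237 and 451 CPM (5.30 ± 0.64, edgeR adjusted p = 1.48e-05). In all 3 genes every treated library lay above every untreated one, and untreated mouse 1 was the highest and untreated mouse 2 the lowest of their group. Without untreated mouse 1 the log2 fold changes were 7.28, 5.45 and 5.95. Ppbp, the precursor of the chemokine CXCL7, rose from 0.817, 0.213 and 0.563 to 11.6, 4.55 and 11.2 CPM and Pf4, platelet factor 4, from 167, 77.4 and 154 to 428, 365 and 469.6 CPM. The members that fell were the interferon-induced Cxcl9 and Cxcl10, with log2 fold changes of -2.46 and -1.65. Without treated mouse 2 the value of Cxcl9 was -4.87.

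Single chemokines of the CC class changed in both directions. Ccl3 (MIP-1alpha) rose from 781, 342 and 493 to 1855, 1669.5 and 1486 CPM (1.63 ± 0.32, edgeR adjusted p = 0.000832) and Ccl6 from 195, 146 and 176 to 877, 481 and 731 CPM (2.02 ± 0.27). Ccl5 (RANTES), which is also interferon-induced, fell from 829, 605 and 988 to 114, 251 and 109 CPM (-2.35 ± 0.62, edgeR adjusted p = 0.00590), with no overlap of the groups. Of 14 tested members 4 were higher, 8 with the mouse as block, and 2 lower. Without the block the 42.9% called is near the 45.1% of all tested genes. Receptors on the responding side moved as well: Ccr1, a receptor for Ccl3 and Ccl5, rose from 27.8, 10.9 and 19.2 to 187, 152 and 228 CPM (3.30 ± 0.32) and Cxcr4, the receptor for CXCL12, from 0.996, 0.854 and 1.69 to 24.9, 15.3 and 24.98 CPM (4.26 ± 0.50). The sphingosine-1-phosphate receptor S1pr1 rose (2.10 ± 0.19) while S1pr2 fell (-1.33 ± 0.16). In the whole list of 18 chemotactic receptors 6 were higher and 4 lower.

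**Figure D2:**
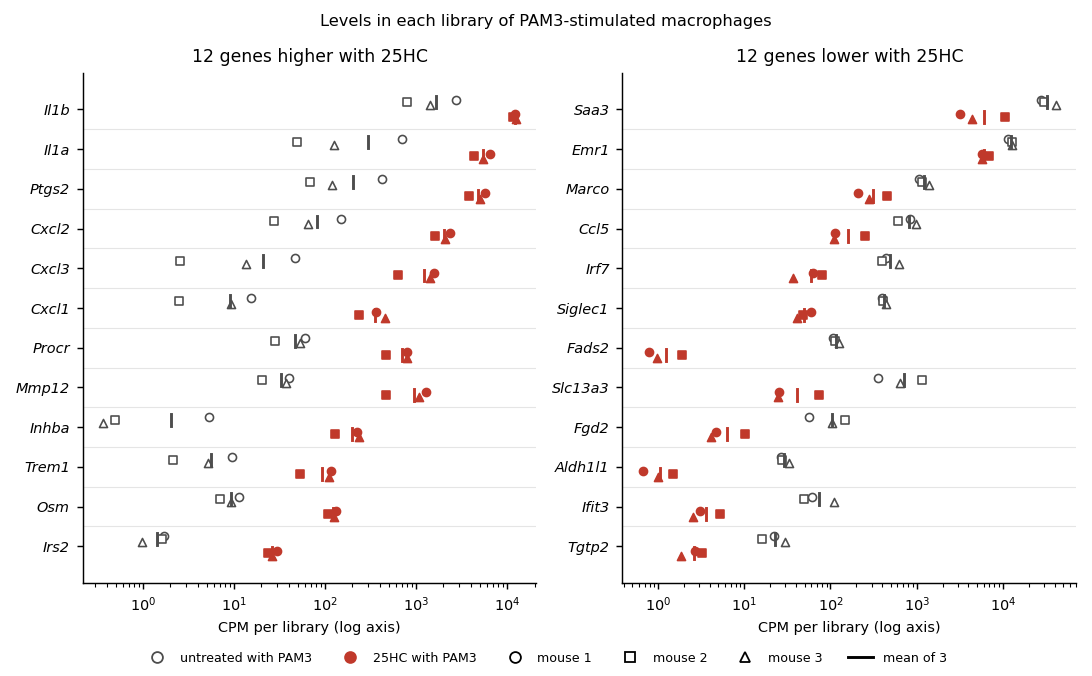
Levels in each of the 6 PAM3 libraries are plotted in CPM on a log axis for 12 genes that rose (left) and 12 that fell (right), with open symbols for untreated cells, filled red symbols for 25HC, a symbol shape per mouse and a bar at the mean of 3. The groups do not overlap in any of the 24 genes, as the rule for naming genes required, and among the rising cytokines the untreated libraries spread widest, as in Il1a (707, 48.9 and 126 CPM).

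Interleukin-1 transcripts gave the largest gain in counts of any gene. Il1b (GRCm38 chromosome 2, 129364570 to 129371139, minus strand) stood at 2756, 798 and 1421 CPM in untreated and at 12231, 11728 and 12478 CPM in treated cells (2.87 ± 0.72, edgeR adjusted p = 0.00433), and Il1a at 707, 48.9 and 126 and 6447, 4379.8 and 5479 CPM (4.21 ± 0.97, edgeR adjusted p = 0.00257). The treated libraries lay close together and far above the untreated ones, which differed widely among themselves. Without untreated mouse 1 the value for Il1a was 5.96. Of 13 tested members of the family 6 were higher and 3 lower, and one of the latter was Sigirr, an inhibitory receptor, at 1.33, 1.69 and 1.46 and 0.334, 0.358 and 0.370 CPM (-2.08 ± 0.18). Il1r1, the signalling receptor, rose from 1.30, 0.783 and 0.591 to 3.53, 2.62 and 4.903 CPM (2.04 ± 0.51). Genes of the inflammasome, which cuts pro-interleukin-1beta, did not move as one. Nlrp3, its sensor, rose from 136, 65.8 and 78.5 to 443, 369 and 410.0 CPM (2.12 ± 0.28), while Pycard, its adaptor (ASC), fell from 85.5, 167 and 157 to 17.1, 29.4 and 19.2 CPM (-2.64 ± 0.26), in every library of the group. Over that list of 19 genes 2 were higher, 5 lower and 12 not called, so that 36.8% were called.

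Cytokines of other families and their receptors changed in both directions. Osm (oncostatin M), which signals through gp130, went from 11.4, 7.06 and 9.23 to 133, 109 and 127 CPM (3.74 ± 0.23, edgeR adjusted p = 9.35e-08) and Il6st, which encodes gp130, from 55.3, 43.998 and 41.4 to 164, 121 and 174 CPM (1.71 ± 0.20). Il6 stood at 66.0, 9.41 and 21.4 CPM untreated and at 647, 562 and 689 CPM with 25HC (4.301 ± 0.71, edgeR adjusted p = 0.000188), and the value was 5.38 without untreated mouse 1. Il15 fell from 16.7, 15.5 and 20.03 to 5.196, 6.30 and 4.93 CPM (-1.66 ± 0.19) together with its receptor chain Il15ra, from 4.67, 4.79 and 4.304 to 1.46, 1.83 and 1.62 CPM (-1.48 ± 0.16). Over this list of 20 genes 7 were higher, 5 lower and 8 not called. Among TNF family genes more fell than rose (8 and 4 of 23, with 5 lower without untreated mouse 2 and 2 higher without treated mouse 3). Tnfsf10 (TRAIL) dropped from 2.94, 2.96 and 3.01 to 0.0878, 0.221 and 0.185 CPM (-4.08 ± 0.28, edgeR adjusted p = 2.55e-07), and Tnf itself stood at 267, 189.7 and 204.9 and 339, 355 and 247 CPM and was not called (0.51 ± 0.47, edgeR adjusted p = 0.399). The groups did not overlap for Osm, Il6, Il15 or Tnfsf10, and they did for Tnf.

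Growth factors were the class with the highest median. Of 23 tested genes 16 were higher and 1 lower, with a median log2 fold change of 1.61 against -0.04 for all genes. Inhba (chromosome 13, 16011851 to 16031621, plus strand), which encodes the subunit of activin A, stood at 5.29, 0.491 and 0.366 CPM in untreated and 226, 127 and 235 CPM in treated cells (6.67 ± 0.76, edgeR adjusted p = 9.58e-06), the second largest rise among the named genes. Untreated mouse 1 lay far above the other two untreated libraries, and without it the value was 8.76. Hbegf, a ligand of the EGF receptor, rose from 0.409, 0.142 and 0.197 to 4.55, 3.50 and 4.58 CPM (4.18 ± 0.50) and Pdgfb, a chain of platelet-derived growth factor, from 22.2, 25.02 and 26.4 to 109, 87.8 and 102 CPM (2.02 ± 0.21). For Pdgfb the 3 libraries of each group lay within a narrow range. Csf3r, the receptor for G-CSF, was not called (-0.33 ± 0.38).

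Feedback inhibitors of cytokine and growth factor signalling were higher as well. Of 17 MAP kinase phosphatases and SOCS proteins, which restrain MAP kinases and JAK-STAT signalling, 13 were higher. Cish went from 3.78, 0.669 and 1.63 to 44.2, 39.2 and 40.4 CPM (4.40 ± 0.55, edgeR adjusted p = 2.06e-05) and Socs2 from 0.358, 0.0356 and 0.0563 to 7.64, 5.84 and 8.46 CPM (5.90 ± 0.70, edgeR adjusted p = 1.32e-05). The untreated libraries held 21 counts of Socs2 in all. Both are feedback inhibitors of STAT5 signalling, and for both the untreated level rested mostly on mouse 1: without it the values were 5.26 for Cish and 7.39 for Socs2, and Socs2 was 5.09 without untreated mouse 2. Dusp5, a nuclear phosphatase of ERK, rose from 1.51, 1.22 and 1.69 to 12.3, 9.14 and 14.5 CPM (3.04 ± 0.45) and Dusp8 from 2.68, 1.35 and 1.83 to 9.99, 9.95 and 8.72 CPM (2.31 ± 0.31). The only member of the list called lower was Dusp2 (-0.65 ± 0.25). Its call was lost without untreated mouse 2 (-0.51), untreated mouse 3 (-0.60), treated mouse 1 (-0.44) or treated mouse 3 (-0.49). The call was also lost with counts thinned to equal depth (-0.64), with no filter on low counts (-0.65) and with only the groups compared in the fit (-0.63).

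Immediate-early transcription factors were higher too. Of 18 tested EGR, NR4A and KLF factors 12 rose and 2 fell (median 1.16). Klf4 stood at 4.57, 5.58 and 6.36 CPM untreated and 39.3, 34.7 and 42.2 CPM with 25HC (2.82 ± 0.17, edgeR adjusted p = 9.35e-08), one of the smallest p-values of the comparison. Klf9, whose gene glucocorticoids induce, went from 1.69, 0.989 and 1.13 to 14.4, 11.3 and 15.4 CPM (3.46 ± 0.28), and Nr4a3, an orphan nuclear receptor, from 0.230, 0.121 and 0.0563 to 3.88, 2.61 and 3.93 CPM (4.67 ± 0.46). Klf2 moved the other way, from 3.32, 5.83 and 5.23 to 1.02, 0.892 and 0.532 CPM (-2.54 ± 0.22, edgeR adjusted p = 8.92e-07). So Klf2 and Klf4, close relatives that share many DNA sites, changed in opposite directions, with no overlap of libraries in either.

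More genes of the NF-kB pathway and of AP-1 were higher than lower. 11 of 21 NF-kB pathway genes were higher and 2 lower (median 0.66), by modest factors. Rela, the transactivating subunit, went from 81.9, 84.8 and 91.4 to 167, 169 and 155 CPM (0.93 ± 0.09, edgeR adjusted p = 3.75e-06) and Nfkb1, which encodes p50, from 295, 243 and 237 to 480.4, 460.3 and 455 CPM (0.85 ± 0.11). Nfkbie, an inhibitor of the I-kappa-B kind, rose from 29.1, 24.1 and 25.6 to 77.6, 74.2 and 74.5 CPM (1.52 ± 0.17) and Ikbkg (NEMO), the scaffold of the kinase that removes such inhibitors, from 86.5, 75.5 and 76.8 to 179, 147 and 179 CPM (1.08 ± 0.10). Of 16 AP-1 genes 8 were higher and 3 lower. Fosl2 (Fra-2) rose from 46.4, 30.2 and 33.4 to 324, 249 and 322 CPM (3.02 ± 0.25, edgeR adjusted p = 6.78e-07) and Fosl1 (Fra-1) from 0.281, 0.171 and 0.169 to 6.81, 4.08 and 6.57 CPM (4.84 ± 0.72). Batf and Batf2, relatives of AP-1 that act with IRF proteins, fell (-1.14 ± 0.18 and -2.07 ± 0.27).

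Receptors that sense microbes were changed one by one. Cd14, a co-receptor for lipopolysaccharide and lipopeptides, rose from 1431, 1101 and 1439.9 to 4378, 4924 and 4753 CPM (1.82 ± 0.20, edgeR adjusted p = 7.85e-06). Tlr4 rose from 117, 92.0 and 77.2 to 310.0, 189 and 285 CPM (1.45 ± 0.20) and Tlr2, the receptor of PAM3, from 419.8, 306 and 358 to 900.3, 892 and 913 CPM, whereas Tlr1, the partner of Tlr2, fell from 533, 492 and 473 to 213, 258 and 197 CPM. Over 18 genes of Toll-like receptor signalling 5 were higher and 3 lower, near the background. Among lectin receptors for fungal sugars, picked out here from a longer list, 3 rose: Clec7a (dectin-1) from 7.48, 3.73 and 6.245 to 71.7, 53.6 and 83.6 CPM (3.60 ± 0.52), Clec4n (dectin-2) from 24.9, 5.24 and 12.8 to 442, 254 and 403 CPM (4.69 ± 0.58) and Clec4d from 472, 372 and 518 to 1238, 1129 and 1312 CPM (1.43 ± 0.23). Trem1, a receptor that amplifies inflammation, went from 9.58, 2.12 and 5.15 to 116, 53.2 and 110.0 CPM (4.08 ± 0.71, edgeR adjusted p = 0.000307). Untreated mouse 2 was the lowest library for Trem1 and for these lectin receptors, and without untreated mouse 1 Clec4n stood at 5.37 and Trem1 at 4.73. Falling receptors included Siglec1 (sialoadhesin), from 398, 411 and 442 to 58.9, 47.5 and 40.4 CPM (-3.09 ± 0.30, edgeR adjusted p = 2.73e-06), Marco, a scavenger receptor for bacteria, from 1074, 1158 and 1397 to 211, 449.6 and 283 CPM (-1.94 ± 0.27), and Scarb1, which takes lipid from HDL, from 133, 180.2 and 182 to 27.5, 37.8 and 29.7 CPM (-2.38 ± 0.29). Of 27 TREM, Siglec and Ms4a receptors 4 were higher and 9 lower. Scavenger and lectin receptors as a list had 6 higher and 9 lower of 27.

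Single genes of prostaglandin, adenosine and cyclic AMP signalling changed by large factors. Ptgs2 (chromosome 1, 150100031 to 150108227, plus strand), which encodes the inducible cyclooxygenase COX-2, stood at 421, 68.6 and 119.7 CPM untreated and 5736, 3777 and 4997 CPM with 25HC (4.57 ± 1.03, edgeR adjusted p = 0.00212), and at 5.68 without untreated mouse 1. Ptger2, a receptor for its product prostaglandin E2, rose from 13.5, 9.76 and 15.2 to 83.2, 64.9 and 70.2 CPM (2.51 ± 0.27), and Hpgds, which makes prostaglandin D2, fell from 131, 157 and 102 to 44.8, 42.7 and 37.4 CPM (-1.64 ± 0.22). In all, 3 of 25 genes of this class were higher and 5 lower. Nt5e (CD73), which makes adenosine outside the cell, rose from 0.281, 0.0356 and 0.169 to 8.78, 4.87 and 11.9 CPM (6.04 ± 0.72, from 22 counts in the untreated libraries together; 6.84 without untreated mouse 1 and 5.21 without untreated mouse 2). Of 26 receptors and enzymes for purines, lipids and metabolites 7 were higher and 9 lower. Hcar2, the niacin receptor, went from 23.9, 15.9 and 16.8 to 158, 135 and 145 CPM (2.95 ± 0.32). Of 23 genes of RGS proteins and cyclic AMP 7 were higher and 10 lower. Among them Adcy7, an adenylyl cyclase, fell from 442, 539 and 438 to 146, 167 and 147 CPM (-1.62 ± 0.13, edgeR adjusted p = 5.85e-07) and Pde4d, a phosphodiesterase, rose from 0.281, 0.185 and 0.253 to 2.48, 1.998 and 3.19 CPM (3.46 ± 0.42).

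Genes of proteases, their inhibitors and their receptors changed in both directions, and Mmp12, Plaur and Procr were among those that rose. Mmp12, the macrophage elastase, stood at 40.3, 20.4 and 37.6 CPM untreated and at 1299.9, 465 and 1082 CPM with 25HC (4.86 ± 0.67, edgeR adjusted p = 4.06e-05). Plaur, the urokinase receptor, went from 28.8, 12.6 and 17.6 to 279, 204.9 and 255 CPM (3.65 ± 0.40) and Procr, the endothelial protein C receptor, from 59.9, 28.1 and 52.7 to 804, 472 and 801 CPM (3.89 ± 0.50). For the 3 genes treated mouse 2 was the lowest of its group and still far above the untreated libraries. They share an AP-1 site before the start, shown here for that reason, with capitals for the motif TGANTCA (searched on both strands; RefSeq promoters, GRCm38.p6, plus strand; chr9:7347300-7347366, chr7:24462384-24462450 and chr2:155751033-155751099).
Mmp12: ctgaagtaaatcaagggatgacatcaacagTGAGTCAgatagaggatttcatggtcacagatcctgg
Plaur: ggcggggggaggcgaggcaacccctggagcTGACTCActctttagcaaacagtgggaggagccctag
Procr: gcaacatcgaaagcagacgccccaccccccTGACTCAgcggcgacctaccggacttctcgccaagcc
The motif is common: it was present in 6.41% of the promoters of all tested coding genes and 5.82% of those not called. Of genes called higher 7.04% held it, and of genes called lower 7.16%, where 79.6% of the promoters were matched. At 2-fold or more the shares were 10.8% of higher genes (78.7% matched) and 9.65% of lower genes (77.0% matched). At 8-fold or more they were 25.3% (68.3% matched) and 10.4% (73.7% matched). The 3 genes shown are among those higher at 8-fold or more, and the difference between these shares was not tested. Of 18 metalloproteinases and inhibitors 7 were higher and 5 lower, the latter 3 without treated mouse 1 and 3 without treated mouse 3. Timp2, an inhibitor of these enzymes, fell from 42.7, 72.7 and 68.4 to 12.7, 22.2 and 16.1 CPM (-1.85 ± 0.26). Plat, tissue plasminogen activator, rose from 0.102, 0.107 and 0.113 to 2.02, 2.16 and 1.92 CPM (4.22 ± 0.42), whereas the anticoagulant genes Thbd (thrombomodulin) and Pros1 (protein S) fell (-2.13 ± 0.24 and -1.67 ± 0.16). Coagulation and fibrinolysis genes thus split, 7 higher and 6 lower of 22. Tgm2, a cross-linking transglutaminase, and Lgals3, galectin-3, rose (1.64 ± 0.46 and 1.63 ± 0.20).

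Antioxidant genes under NRF2, a transcription factor freed from KEAP1 by electrophiles, were mostly higher: 15 of 26 rose and 5 fell (median 0.76). Sqstm1, which encodes the autophagy receptor p62, went from 609.5, 449 and 621 to 3539.8, 3164 and 2958 CPM (2.52 ± 0.19, edgeR adjusted p = 4.04e-07) and Srxn1, sulfiredoxin, from 132.02, 82.9 and 123 to 544, 437 and 475 CPM (2.11 ± 0.25, edgeR adjusted p = 1.08e-05). Nfe2l2, which encodes NRF2, rose from 227, 147 and 184 to 439, 407 and 409 CPM (1.17 ± 0.17). Within the same list Hmox1, heme oxygenase 1, fell from 826, 757 and 955 to 429, 519 and 409 CPM (-0.90 ± 0.13) and Slc48a1, a heme transporter, from 299, 299 and 356 to 156, 175 and 156 CPM (-0.97 ± 0.11). Beside them Slc40a1 (ferroportin), the iron exporter, rose from 9.27, 4.41 and 5.60 to 70.1, 45.1 and 50.9 CPM (3.12 ± 0.40) and Alas1, the first enzyme of heme synthesis, from 188, 144 and 194 to 454, 369 and 440.0 CPM (1.27 ± 0.19). Of 26 autophagy genes, Sqstm1 included, 11 were higher, 3 lower and 12 not called. Those that rose included Atg13 (0.77 ± 0.10), Nbr1 (0.81 ± 0.13) and Tax1bp1 (0.76 ± 0.12).

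Genes of the integrated stress response under ATF4 were higher where they were called. Of 37 tested 14 were higher and 23 not called, and 1 was lower without untreated mouse 1 and 1 with the mouse as block. Ppp1r15a (GADD34), which reverses the stress phosphorylation of eIF2alpha, rose from 26.6, 22.1 and 28.2 to 125, 114 and 115 CPM (2.20 ± 0.15, edgeR adjusted p = 2.55e-07), Trib3 from 25.1, 30.5 and 34.7 to 113, 131 and 113 CPM (1.98 ± 0.24) and Slc3a2, a subunit of amino acid transporters, from 280.4, 273 and 322 to 757, 702 and 693 CPM (1.30 ± 0.14). Its partner Slc7a11, the cystine transporter, stood at 79.02, 12.3 and 21.7 and 1087, 577 and 1031 CPM (4.58 ± 0.78; 5.73 without untreated mouse 1). Chaperones of the endoplasmic reticulum did not follow: 5 of 27 were higher and 5 lower. Both counts went down to 3 and 3 without treated mouse 1. The first was 3 without untreated mouse 2 and 3 without treated mouse 3, and the second 3 without untreated mouse 3. Calr, the calcium-binding chaperone calreticulin, fell from 1657, 1822 and 2302 to 822, 1058 and 962 CPM (-1.02 ± 0.27).

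Cholesterol synthesis was low along nearly its whole length. From acetyl-CoA to squalene 9 of 10 genes fell, and from squalene to cholesterol all 12 tested genes fell, with medians of -2.64 and -2.87. Fdps, which makes farnesyl diphosphate, stood at 108, 112 and 145 CPM in untreated and 6.07, 8.84 and 6.34 CPM in treated cells (-4.10 ± 0.52, edgeR adjusted p = 2.14e-05). Cyp51, which removes the methyl group at carbon 14 of lanosterol, stood at 165, 133 and 169 and 10.8, 12.03 and 10.3 CPM (-3.81 ± 0.47). In both genes the 3 treated libraries lay in a narrow band, more than 10-fold below the untreated ones. Ebp, a sterol isomerase, fell from 38.1, 41.7 and 47.9 to 23.5, 26.6 and 22.8 CPM (-0.81 ± 0.11). The exception of the first segment, Ggps1, makes geranylgeranyl diphosphate on a side branch and rose (0.63 ± 0.11).

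Several genes of sterol uptake and control that SREBP2 is known to drive fell as well. Stard4, a carrier of cholesterol inside the cell, went from 123, 113 and 84.5 to 10.2, 10.9 and 9.71 CPM (-3.38 ± 0.46, edgeR adjusted p = 3.73e-05). Srebf2 fell from 273, 323 and 297 to 73.7, 85.5 and 72.9 CPM (-1.94 ± 0.33), Insig1 from 173.1, 141 and 188 to 41.5, 43.4 and 41.6 CPM (-1.99 ± 0.32) and Srebf1 from 167, 242 and 202 to 95.8, 119.8 and 86.3 CPM (-1.02 ± 0.20). Mylip, an LXR target that encodes a ubiquitin ligase, rose from 87.2, 72.6 and 78.1 to 187, 183.4 and 173.2 CPM (1.19 ± 0.20, edgeR adjusted p = 0.000218). Of 14 genes 6 fell and 2 rose. The count of rises was 1 without untreated mouse 2, 1 without untreated mouse 3 and 1 without treated mouse 1.

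LXR targets were not of one direction. Arl4c rose from 50.6, 51.5 and 56.7 to 267, 245 and 271 CPM (2.30 ± 0.17, edgeR adjusted p = 3.35e-07), alongside the cholesterol exporter Abcg1 (234, 244 and 266 and 691, 629.9 and 635 CPM; 1.39 ± 0.22). Lpcat3, which puts polyunsaturated fatty acids into phospholipids, fell from 136, 137 and 162 to 52.1, 64.4 and 53.5 CPM (-1.35 ± 0.15, edgeR adjusted p = 7.76e-06). The receptors differed: Nr1h3 (LXRalpha) fell from 84.2, 104 and 102 to 26.8, 41.8 and 24.8 CPM (-1.64 ± 0.17), while Nr1h2 (LXRbeta) was not called (0.33 ± 0.16, edgeR adjusted p = 0.107) unless the mouse was a block (0.34, edgeR adjusted p = 0.0361). Of 14 receptors and targets 4 were higher and 4 lower, the latter 7 with the mouse as block. Soat2, which esterifies cholesterol, rose from 4.39, 3.97 and 4.14 to 25.3, 23.9 and 24.1 CPM (2.55 ± 0.34) and Hilpda, a lipid droplet protein that restrains lipolysis, had the smallest p-value of the comparison (5.01, 4.25 and 5.18 and 55.7, 47.7 and 64.1 CPM; 3.54 ± 0.17, edgeR adjusted p = 9.91e-09).

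Fatty acid synthesis fell with sterol synthesis: 13 of 16 genes were lower and 1 higher (median -1.37). Scd2, a desaturase that places the first double bond, fell from 2412, 2364 and 2368 to 383, 542 and 482 CPM (-2.34 ± 0.43, edgeR adjusted p = 0.000420). Fads1, which desaturates polyunsaturated fatty acids, fell from 162.9, 168 and 188 to 46.5, 59.1 and 46.7 CPM (-1.77 ± 0.18, edgeR adjusted p = 3.29e-06), and its neighbour Fads2 from 107, 113 and 125 to 0.790, 1.90 and 0.971 CPM (-6.49 ± 0.81), the largest fall of all named genes. No treated library reached an untreated one in any of the 3. Among fatty acid oxidation genes 8 of 19 fell.

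Interferon-induced genes fell almost as a body. Of 32 antiviral effectors 31 were lower and 1 not called, with a median of -2.12, and of 15 interferon-inducible GTPases, which attack vacuoles of microbes, 11 were lower and 4 not called. Ifit3, which blocks viral RNA, stood at 60.7, 49.9 and 111 CPM untreated and 3.05, 5.21 and 2.52 CPM with 25HC (-4.33 ± 0.52, edgeR adjusted p = 1.32e-05), Ifi27l2a at 228, 282 and 477 and 31.3, 42.4 and 24.7 CPM (-3.33 ± 0.25, edgeR adjusted p = 3.35e-07) and Zbp1, a sensor of Z-form nucleic acid, at 294, 215 and 377 and 44.9, 52.3 and 31.1 CPM (-2.79 ± 0.42). Untreated mouse 3 was the highest library for all 3. Near-identical relatives, such as genes of the Ifit, Gbp, Tgtp and Irgm families, can share reads, so values of single members are uncertain.

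The GTPase genes Igtp, Irgm2 and Tgtp2 on chromosome 11 and Stat2 on chromosome 10 have the core of an interferon-stimulated response element before the start, shown here because it is a site that STAT2 and IRF9 bind in a complex. Capitals mark GAAA, any 2 bases and GAAA again, searched on both strands, so that the reverse complement stands in capitals for Stat2. RefSeq promoters (GRCm38.p6) are given 5′ to 3′ along the gene: chr11:58199492-58199555, chr11:58214883-58214952 and chr10:128270248-128270315 on the plus strand and chr11:49064243-49064312 for Tgtp2 on the minus strand.
Igtp: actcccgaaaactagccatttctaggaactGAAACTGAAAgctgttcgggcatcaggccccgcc
Irgm2: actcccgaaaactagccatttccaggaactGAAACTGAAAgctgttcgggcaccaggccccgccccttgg
Tgtp2: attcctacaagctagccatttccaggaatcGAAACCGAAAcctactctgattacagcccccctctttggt
Stat2: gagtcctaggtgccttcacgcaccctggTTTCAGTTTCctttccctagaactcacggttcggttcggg
The motif was present in 3.96% of all promoters matched and in 3.08% of those of genes called higher. Of genes called lower 6.12% held it, where 79.6% of the promoters were matched. Igtp fell from 79.3, 78.6 and 105.5 to 19.2, 21.8 and 15.96 CPM (-2.21 ± 0.19, edgeR adjusted p = 9.36e-07), Irgm2 from 97.6, 91.8 and 102 to 25.7, 25.7 and 21.2 CPM (-2.01 ± 0.17) and Tgtp2 from 22.02, 16.1 and 29.3 to 2.70, 3.20 and 1.85 CPM (-3.10 ± 0.39). Treated mouse 3 had the lowest level of each. Stat2 fell from 255, 211 and 279.7 to 74.1, 70.6 and 61.03 CPM (-1.86 ± 0.26).

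The machinery upstream of these genes did not fall as a whole. Irf7 (chromosome 7, 141262706 to 141266481, minus strand), which amplifies the type I interferon response, dropped from 439, 398 and 629 to 62.3, 80.2 and 36.9 CPM (-3.03 ± 0.44, edgeR adjusted p = 7.12e-05) and is itself interferon-induced. Irf9, the DNA-binding partner of STAT2, fell from 113, 109 and 126 to 79.01, 81.9 and 67.4 CPM (-0.61 ± 0.13). Over 20 receptors, STATs and IRFs 6 were lower and 6 higher, and the second count did not hold when a library was left out: it was 2, 0 and 2 without untreated mouse 1, 2 or 3 and 2, 1 and 1 without treated mouse 1, 2 or 3. Ifnb1, which encodes interferon-beta, had 30 counts over the 6 libraries and did not pass the filter on low counts. Sensors of viral RNA and DNA were lower: 15 of 20 fell and 5 were not called (1 rose without treated mouse 2), among them Ddx58 (RIG-I), from 294, 229 and 263 to 79.6, 83.5 and 64.5 CPM (-1.79 ± 0.25), and Ifi204, from 200.01, 162.6 and 194 to 57.2, 64.7 and 51.8 CPM (-1.68 ± 0.23).

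MHC class I presentation, which interferons raise, was also lower, with 15 of 21 genes down and 2 up (median -0.71). B2m, the light chain, went from 3556, 2965 and 4168 to 2279, 2392 and 2128 CPM (-0.65 ± 0.14, edgeR adjusted p = 0.00172), the non-classical H2-T24 from 168, 165 and 203.5 to 17.4, 20.2 and 10.1 CPM (-3.48 ± 0.34, edgeR adjusted p = 3.03e-06) and Psmb9, a subunit of the immunoproteasome, from 51.5, 63.8 and 75.8 to 20.5, 29.1 and 21.7 CPM (-1.42 ± 0.17). The groups did not overlap for any of them. The MHC class II genes H2-Aa and H2-DMb1 fell (-2.20 ± 0.45 and -1.74 ± 0.22), as did 6 of 14 of that list, 3 without treated mouse 1. Of 20 costimulatory and checkpoint genes 9 were higher and 5 lower. Cd83, a marker of activated antigen-presenting cells, rose from 5.95, 5.77 and 6.05 to 25.3, 27.5 and 24.3 CPM (2.12 ± 0.23).

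More complement genes were lower than higher. Of 21 tested complement genes 12 were lower and 1 higher (median -0.76). C1qb, a chain of C1q, which tags debris and microbes, went from 872, 1329 and 1325 to 286, 566 and 300.1 CPM (-1.61 ± 0.27, edgeR adjusted p = 0.000187), C1qa from 330.2, 548 and 503 to 87.4, 221 and 100.5 CPM (-1.76 ± 0.30) and Cfb, factor B of the alternative pathway, from 26.5, 25.4 and 34.3 to 2.69, 5.62 and 2.71 CPM (-2.95 ± 0.49, edgeR adjusted p = 0.000204). In all 3 genes treated mouse 2 kept the highest level of its group. Cd55, which protects host cells from complement, fell as well, from 55.1, 40.5 and 37.8 to 6.46, 8.92 and 7.38 CPM (-2.55 ± 0.23). Ligands of the clearance receptors MERTK and AXL were lower, Gas6 at 50.1, 94.9 and 79.3 and 19.5, 27.2 and 16.4 CPM (-1.83 ± 0.35) and Pros1 at 43.7, 53.5 and 45.7 and 13.2, 17.5 and 14.2 CPM (-1.67 ± 0.16), among 6 lower and 2 higher of 17 efferocytosis genes.

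Several of the genes with the highest counts in these macrophages fell. Saa3 (chromosome 7, 46711998 to 46715700, minus strand), an acute phase serum amyloid, stood at 27663, 30298 and 41271 CPM in untreated and 3177, 10763 and 4391 CPM in treated cells (-2.44 ± 0.55, edgeR adjusted p = 0.00201; -3.13 without treated mouse 2). Lyz2, macrophage lysozyme, stood at 26634, 32739 and 38520.2 and 15011, 20474 and 16719.5 CPM (-0.91 ± 0.17), and Emr1, at the levels given above, fell as well (-1.01 ± 0.16). Hp, haptoglobin, fell from 188, 181 and 296 to 6.99, 24.8 and 10.8 CPM (-3.95 ± 0.56, edgeR adjusted p = 5.72e-05; -4.64 without treated mouse 2). Aif1 (IBA1), an actin-bundling protein of macrophages, fell from 85.3, 195 and 149 to 12.5, 24.7 and 10.9 CPM (-3.15 ± 0.40), Maf, a transcription factor of resident macrophages, from 567, 641 and 605 to 180.2, 220.3 and 187 CPM (-1.63 ± 0.24) and Actb, beta-actin, from 6912, 9158 and 9773 to 3196, 3308 and 3056 CPM (-1.43 ± 0.21). The share of counts in the 10 genes with the highest counts of a group was 15.1% in untreated and 10.2% in treated cells. Most called members of the antimicrobial list were lower. Slpi, an inhibitor of leukocyte proteases, rose from 8.35, 4.70 and 9.34 to 73.4, 43.4 and 74.2 CPM (3.10 ± 0.41). Of 21 tested members 11 were lower, 7 without treated mouse 1 and 7 without untreated mouse 3, and 3 higher.

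In the lists of the respiratory chain and mitosis more genes were lower than higher. Of 37 genes of the respiratory chain and TCA cycle 21 were lower and 16 not called (median -0.38), for example Atp5o, a subunit of ATP synthase, from 76.6, 87.9 and 109 to 50.5, 59.8 and 48.9 CPM (-0.78 ± 0.15, edgeR adjusted p = 0.000526). Hif1a, the oxygen-regulated transcription factor, rose from 411, 208 and 228 to 972, 856 and 1085 CPM (1.78 ± 0.33). Glycolysis and hypoxia genes had 4 higher and 8 lower of 30, and the 40% called is near the 45.1% of all tested genes. The counts of this list were 2 higher without untreated mouse 2 and 5 lower without treated mouse 3. Mitosis genes were lower after 25HC in 10 of 30 (median -1.06), 20 with the mouse as block and 6 without untreated mouse 1, 6 without untreated mouse 3, 6 without treated mouse 2 and 6 without treated mouse 3. Aurkb, a mitotic kinase, lay at 3.91, 5.67 and 5.91 and 1.47, 1.66 and 1.69 CPM (-1.69 ± 0.43). Most members were not called in the lists of ribosome biogenesis (24 of 29), the proteasome (24 of 31) and the lysosome and V-ATPase (22 of 32), as the plot of all lists shows.

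Of 17 circadian regulators 9 were higher and 2 lower, the latter 1 whichever of the 6 libraries was left out (median 0.68). Nfil3, a repressor that opposes the D-box activators of the clock, rose from 18.1, 19.2 and 23.7 to 95.2, 102 and 103 CPM (2.30 ± 0.28, edgeR adjusted p = 1.57e-05), Nr1d2 (REV-ERBbeta) from 24.8, 20.6 and 17.7 to 72.0, 53.2 and 65.8 CPM (1.597 ± 0.19) and Rora from 8.43, 4.44 and 4.70 to 24.9, 18.5 and 24.7 CPM (1.96 ± 0.24). With 1 time measured, a change of level and a shift of phase cannot be told apart.

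**Figure D3:**
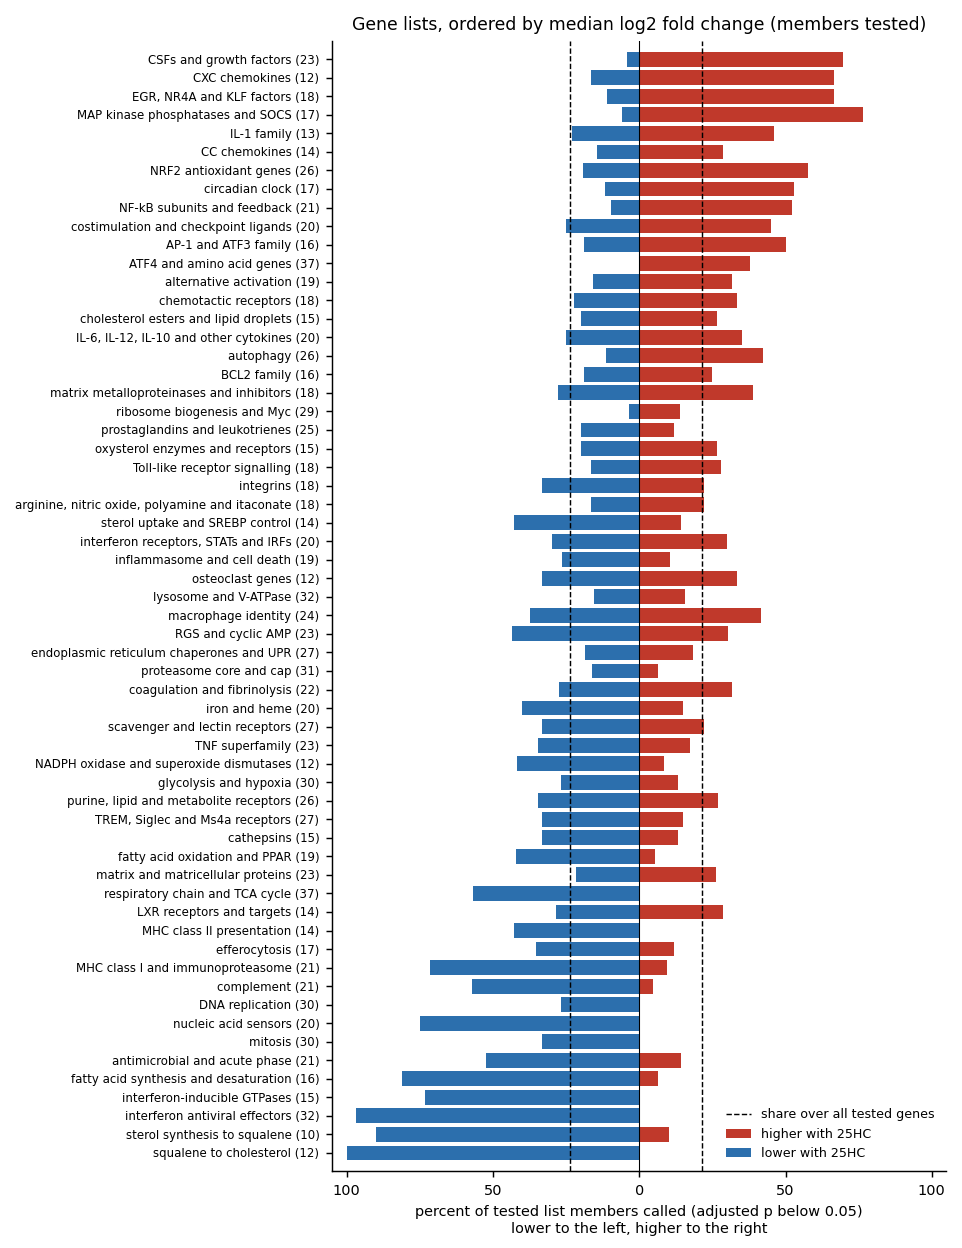
Bars give, for each of the pathway lists, the percent of tested members called higher with 25HC (red, to the right) and lower (blue, to the left), ordered by median log2 fold change, with dashed lines at the shares over all tested genes (21.5% and 23.6%). Sterol synthesis and antiviral lists lie at the lower end and growth factors, CXC chemokines and EGR, NR4A and KLF factors at the upper end.

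Outside these lists the most regular changes, by p-value, were in genes of other roles. Sgk1, a kinase induced by serum and glucocorticoids, rose from 36.1, 29.3 and 35.1 to 207, 168 and 202.8 CPM (2.53 ± 0.14, edgeR adjusted p = 3.00e-08) and Irs2, the adaptor of the insulin receptor, from 1.71, 1.63 and 0.985 to 29.3, 23.5 and 25.9 CPM (4.16 ± 0.22, edgeR adjusted p = 2.74e-08). Sec23a, a coat subunit of vesicles that leave the endoplasmic reticulum, rose from 63.8, 51.05 and 49.1 to 154, 146 and 159 CPM (1.49 ± 0.10, edgeR adjusted p = 1.56e-07), with the vesicle SNARE Sec22b from 62.4, 60.5 and 71.2 to 148, 148 and 158 CPM (1.23 ± 0.08) and the Golgi protein Blzf1 from 23.1, 19.2 and 18.3 to 63.3, 60.9 and 65.3 CPM (1.65 ± 0.12). Within each group these libraries differed by little. Hid1 (chromosome 11, 115347707 to 115367756, minus strand), which acts in the trans-Golgi network, gave the largest rise of the named genes, from 0.0511, 0.114 and 0.169 to 13.3, 8.84 and 13.6 CPM (6.71 ± 0.37, edgeR adjusted p = 3.00e-08), with 24 counts in the 3 untreated libraries together. Cav1, the coat protein of caveolae, rose from 3.68, 0.918 and 2.25 to 83.2, 43.1 and 98.8 CPM (5.09 ± 0.56).

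Several large falls lay outside the lists as well. Slc13a3 (chromosome 2, 165405028 to 165473230, minus strand), a sodium-coupled transporter of dicarboxylates, stood at 355, 1139.9 and 637 CPM untreated and 24.9, 73.7 and 24.3 CPM with 25HC (-4.11 ± 0.59, edgeR adjusted p = 5.72e-05), and at -4.85 without treated mouse 2. Fgd2, an activator of the GTPase CDC42, fell from 56.9, 148 and 104.6 to 4.70, 10.2 and 4.14 CPM (-4.003 ± 0.46, edgeR adjusted p = 9.99e-06) and Aldh1l1, which oxidises formyl-tetrahydrofolate, from 26.5, 27.6 and 33.3 to 0.667, 1.47 and 0.994 CPM (-4.75 ± 0.36, edgeR adjusted p = 4.39e-07). Slc13a3 and Fgd2 shared a pattern among mice: mouse 2 had the highest level in both groups, and the groups still did not overlap. Of 18 genes of arginine, nitric oxide, polyamines and itaconate 4 were higher and 3 lower (1 without untreated mouse 2). Arg2, the mitochondrial arginase, rose from 2.86, 0.733 and 1.91 to 58.3, 33.7 and 45.7 CPM (4.70 ± 0.68), as did Odc1, the first enzyme of polyamine synthesis (1.35 ± 0.23).

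For part of the genes the effect of 25HC with PAM3 differed from its effect at rest. The difference of the 2 effects was called for 3611 of 12741 genes (28.3%), 1597 (12.5%) with a higher and 2014 (15.8%) with a lower value under PAM3, and 246 genes (1.93%) were called in opposite directions in the 2 states. Without treated mouse 1 with PAM3 the first count was 2351, and without treated mouse 3 with PAM3 it was 2288. At rest 26.2% of genes were called. The libraries at rest carry a stimulation time of 0, so stimulus and time cannot be told apart in this difference. Ahr, the aryl hydrocarbon receptor, fell at rest from 5.41, 15.9 and 10.9 to 2.69, 4.50 and 3.51 CPM and rose with PAM3 from 23.2, 4.40 and 7.37 to 182, 129.7 and 168 CPM, a difference of 5.39 ± 0.80 (edgeR adjusted p = 0.000570). Without untreated mouse 1 with PAM3 the difference was 6.38 and the log2 fold change with PAM3 went from 3.79 to 4.78. Sox4, a transcription factor, went from 5.69, 5.71 and 7.02 to 2.10, 5.32 and 2.74 CPM at rest and from 0.204, 0.178 and 0.169 to 5.32, 2.06 and 5.39 CPM with PAM3 (5.37 ± 0.57, edgeR adjusted p = 6.53e-05). Nox1, an NADPH oxidase, showed the reverse, 6.99, 2.41 and 3.82 to 28.1, 10.7 and 18.1 CPM at rest and 9.83, 9.16 and 8.89 to 1.39, 1.12 and 0.948 CPM with PAM3 (-5.13 ± 0.68, edgeR adjusted p = 0.000267).

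**Figure D4:**
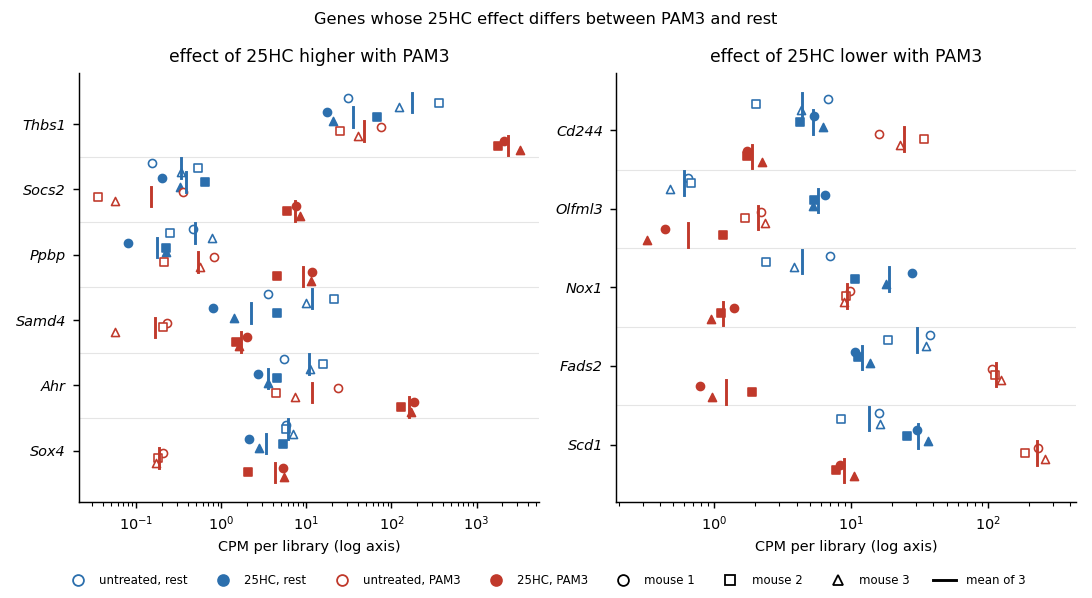
Levels in 12 libraries are plotted in CPM on a log axis for 6 genes with the largest positive (left) and 5 with the largest negative (right) difference of the 25HC effect, PAM3 minus rest, with blue for rest, red for PAM3, open symbols for untreated, filled for 25HC, a shape per mouse and a bar at the mean. In Ahr and Sox4 the filled red symbols lie above the open red ones while the filled blue ones lie at or below the open blue ones.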

How the data were processed

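The authors deposited 1 table of counts, which holds whole numbers of reads for 30530 genes in each of 18 libraries. Per the submitters' processing notes, reads were checked with FastQC 0.11.9, aligned by GSNAP to GRCm38 (mm10) and assigned to genes by featureCounts (Subread 1.5.2). The notes also list edgeR 3.26.8. For the counting step, the strand setting, the annotation release and the treatment of multiply mapped reads were not given in the sources used here. The libraries were stranded, per the labels' protocols.

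The software was edgeR 4.0.16 on R 4.3.3, with limma 3.58.1 and DESeq2 1.42.0. The filter filterByExpr, told the 6 groups, left 12741 genes. After TMM scaling, 1 model held a mean for each group, and all 18 libraries shared the estimate of the spread (common dispersion 0.0370, 12 residual degrees of freedom). The robust quasi-likelihood F test was two-sided with Benjamini-Hochberg adjustment. SE is the absolute log2 fold change over the square root of F. CPM used TMM-scaled totals. On simulated counts for this comparison, over 12540 genes, 90 of 100 changes of 1 and 98 of 99 changes of 2 log2 units were recovered, with 11 false calls. The simulation gave every gene the common dispersion and changed few genes. In the data the spread differed between genes and 45.1% were called, so these figures are not the power or error rate of the comparison. Totals of 39.97 M to 150.4 M counts make counting error small for most genes, but levels well under 1 CPM rest on few reads. Each group had 3 libraries to give the spread behind the p-values.

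The labels give each library a mouse number and do not say whether a number is 1 animal across treatments. Between untreated and 25HC libraries of the same number, deviations from group means over genes correlated with r = 0.406, 0.377 and -0.162, and those of different numbers with r from -0.535 to 0.302. The number was also tried as a block, as it would be if it marked the animal. Replicates were checked for duplicated libraries and none were found.

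The comparison, the 60 pathway lists and 9 lists of other cell types (1354 different genes, 1344 in the file and 1196 tested) and the named genes were chosen with earlier results of these data known. Named genes had an adjusted p below 0.05, at least 5 CPM in the higher group and no overlap of libraries, without predicted genes and pseudogenes, so that the lack of overlap in named genes is no finding: the 20 largest rises and falls, the 10 smallest p, the 8 largest rises and falls in CPM, up to 5 members of each list by p, 2 by level for marker lists, the 6 largest differences from rest each way, and 14 genes fixed by name. Not every such gene is printed, and some are not reported here. For differences from rest the 5 CPM could be reached in any of the 4 groups. Cxcl9, Cxcl10, Il6, Tnf, Dusp2, Ggps1, Ifnb1, Clec7a (a polymorphic pseudogene in GENCODE) and the list members under 5 CPM (Dcstamp, Hbegf, Il15ra, Il1r1, Klf2, Nr4a3, Pde4d, Plat, Sigirr and Tnfsf10) fall outside this rule and were named after their values were seen. Positions are from GENCODE M21, which held 12692 of the tested genes.

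Promoters (250 bases before to 50 after the start, RefSeq GRCm38.p6) were matched by symbol within 10 kb on the same strand for 9725 of 12115 tested coding genes, and 8 motifs were searched. Shares are given only for sets with at least 80% matched, apart from genes called lower (79.6% matched) and the AP-1 sets at 2-fold and 8-fold. For those AP-1 sets the percent matched stands beside each share.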

Additional observations from a re-analysis of the deposited data

Results flagged for a closer look

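In 11 genes the effect of 25HC with PAM3 differed from that at rest by a test of the difference itself, and these had the largest such differences among the named genes (log2, PAM3 minus rest, ± SE, edgeR quasi-likelihood test). The difference was positive for Thbs1, a matricellular protein, at 7.97 ± 1.51 (adjusted p = 0.00220), Socs2 at 5.80 ± 0.98 (adjusted p = 0.00115), Ppbp at 5.62 ± 0.89 (adjusted p = 0.000827), Samd4 at 5.61 ± 1.13 (adjusted p = 0.00305), Ahr at 5.39 ± 0.80 (adjusted p = 0.000570) and Sox4 at 5.37 ± 0.57 (adjusted p = 6.53e-05). Samd4, an RNA-binding regulator of translation, stood at 3.49, 21.1 and 9.97 CPM untreated and 0.792, 4.50 and 1.42 CPM with 25HC at rest, and at 0.230, 0.206 and 0.0563 and 1.98, 1.503 and 1.62 CPM with PAM3.

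The difference was negative for Scd1, a desaturase, at -5.87 ± 1.08 (adjusted p = 0.00191), Fads2 at -5.14 ± 0.97 (adjusted p = 0.00222), Nox1 at -5.13 ± 0.68 (adjusted p = 0.000267), Olfml3 at -4.84 ± 0.73 (adjusted p = 0.000636) and Cd244, a receptor of the SLAM family, at -3.98 ± 0.54 (adjusted p = 0.000325). Cd244 stood at 6.80, 2.03 and 4.2998 CPM untreated and 5.34, 4.23 and 6.24 CPM with 25HC at rest, and at 16.01, 34.2 and 22.8 and 1.74, 1.75 and 2.22 CPM with PAM3. Leaving out 1 library moved some differences by over 1.5 times on the linear scale. As log2 values, Thbs1 went to 6.80 without untreated mouse 2 at rest and 8.85 without treated mouse 2 at rest, Samd4 to 4.84 and 6.61 without the same libraries, and Olfml3 to -5.65 without treated mouse 2 with PAM3. Without untreated mouse 1 with PAM3, Socs2 was at 7.29 and Ahr at 6.38, and Socs2 was at 4.99 without untreated mouse 2. All 11 kept their direction and their call under every setting tried. The stimulation time in the labels also differs between the states, so stimulus and time cannot be told apart.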

How the results depend on the processing

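The count of changed genes (5750) stayed within 1.5 times under every setting tried, with no gene named in the text reversed in any. It was 5775 with DESeq2 size factors, 6141 by the DESeq2 Wald test, 5506 with a filter at 1 CPM, 5420 with no filter and 6056 with only the groups compared in the fit. With the mouse number as replicate block it was 6374, and the block, which rests on the labels' mouse number, changed the call of 1 named gene, Nr1h2. Leaving out each library in turn gave 4484 to 6096 (2194 to 2890 higher, 2287 to 3206 lower). The 2 settings chosen after seeing the data gave 5595 with counts thinned to equal depth and 4355 without mouse 2 of both PAM3 groups, where 4285 of the 5750 genes kept their call and direction.

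The count of genes whose 25HC effect differed between PAM3 and rest (3611; 1597 higher, 2014 lower) was 4513 with the block and 4176 by the Wald test. With no filter it was 2812, of which 1279 were lower, so that 54.5% of calls were higher in place of 44.2%; the cause was not tested. Leaving out each library gave 2288 to 4481, with 1099 to 2000 higher and 1189 to 2481 lower. Its lower part was 1240 without treated mouse 1 and 1189 without treated mouse 3 (both with PAM3), and 1322 without untreated mouse 3 at rest.

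Of 174 genes named in the text and called, 172 held under all 14 settings, Dusp2 and Olfml3 not. Tnf was called with only the groups compared in the fit (0.52, adjusted p = 0.0447), and Csf1r likewise (0.31, adjusted p = 0.0354). AP-1 sites lay in 2.34% of coding promoters when the window was 100 bases before the start. Genes with few counts, such as Ifnb1, could not be compared at this depth.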

Other observations

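Some genes that the account above leaves out also changed. Among lysosomal genes, of which most were not called, single members rose by large factors: Atp6v0d2, a subunit of the proton pump, from 2.25, 1.81 and 2.53 to 18.2, 17.2 and 21.1 CPM (3.12 ± 0.34, edgeR adjusted p = 7.15e-06), Rragd, a GTPase that places mTORC1 on lysosomes, from 1.86, 1.73 and 1.43 to 11.2, 8.77 and 9.46 CPM (2.54 ± 0.24) and the transcription factor Tfec from 14.02, 5.18 and 8.52 to 60.9, 43.7 and 51.3 CPM (2.50 ± 0.27). The groups did not overlap in any of them. Dcstamp, a fusion receptor of osteoclasts, rose from 0.179, 0.107 and 0.0844 to 1.14, 0.854 and 1.596 CPM (3.27 ± 0.60), while Tnfrsf11a (RANK), the receptor that starts osteoclast formation, fell from 143, 153 and 140.2 to 56.4, 61.9 and 55.7 CPM (-1.32 ± 0.22, edgeR adjusted p = 0.000228).

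Genes of cell survival and adhesion changed one by one. Pmaip1 (NOXA), which promotes apoptosis, rose from 11.6, 8.98 and 10.3 to 48.1, 37.1 and 43.5 CPM (2.06 ± 0.17, edgeR adjusted p = 6.46e-07), as did Mcl1, the survival protein it binds, from 347, 338 and 408 to 586, 547 and 599 CPM (0.66 ± 0.11). Itga6, a laminin receptor chain, fell from 115, 187 and 144 to 33.5, 45.5 and 40.9 CPM (-1.89 ± 0.26), and Itgb7 rose from 6.16, 5.06 and 7.96 to 21.3, 13.9 and 23.2 CPM (1.61 ± 0.24). Havcr2 (TIM-3), a checkpoint receptor, rose from 1.89, 1.01 and 1.01 to 14.2, 5.89 and 15.98 CPM (3.23 ± 0.37, edgeR adjusted p = 9.99e-06), with treated mouse 2 the lowest of its group. Osbp, a cytosolic receptor for oxysterols that exchanges lipids at the Golgi, rose from 109, 110.5 and 109 to 175, 175 and 172 CPM (0.67 ± 0.07), within a very narrow spread, and Ch25h was not called (3.55, 1.66 and 2.14 and 4.92, 3.264 and 3.86 CPM).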
